A study of Danio rerio with 16 samples.

Results

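A group of 9 genes of the adult zebrafish heart was measured in cells with the postnb:citrine reporter and by cells with neither reporter, and was close to absent from kdrl:mCherry cells. The genes were DPT, tm4sf21a, hapln1a, mfap5, adh8a, pcolcea, col18a1b, vmo1a and c4. They were chosen from the measured levels themselves, out of 31388 gene IDs, on the mean of each group. A gene had to reach 50 TPM in both citrine-positive and double-negative cells, with both means within 4 times of each other. Its mean in mCherry-positive cells, uninjured and injured, had to stay under 5% of the lower of the other means. TPM is the share of a gene's transcripts in a library, corrected for transcript length and scaled to a fixed total of 1000000, so levels can be compared between genes. Of 821 IDs at 50 TPM in both sorts, 806 were within the ratio and 12 of these were under the ceiling. A list of 18 IDs was left out by name, and 3 of them (FN1, tfa and COL12A1) had met every threshold, which left 9 genes. The level in each sort and the contrast between sorts were thus used in the choice and are described here without a test.

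Cells were sorted by fluorescence from the apex of the ventricle of adult fish aged 3 to 9 months, and the apexes of 3 to 5 hearts were pooled for each library. All fish carried both transgenes. The kdrl promoter drives mCherry in endothelial and endocardial cells, and sequences of a periostin gene drive citrine in activated fibroblasts. Among the 16 libraries, 3 held mCherry-positive cells of hearts without injury. The rest came from hearts taken 7 days after cryoinjury (7 dpi): 4 of mCherry-positive cells, 3 of citrine-positive cells and 6 of cells with neither colour, here called double-negative. Cryoinjury damages part of the ventricle by cold. No uninjured citrine-positive or double-negative library was analysed here, so the effect of injury could be measured in mCherry-positive cells alone. Every p-value below weighs a difference between groups against the spread between these pooled libraries. Unless the pool is named as a block, libraries of the same pool number were treated as independent.

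Cardiac fibroblasts and epicardial cells make most of the fibrous matrix of the heart wall, and after cryoinjury of the zebrafish heart they lay down collagen that is later removed. The matrix is built from collagen fibrils, elastic microfibrils, hyaluronan with its link proteins and proteoglycans, and the basement membranes under endothelium and around muscle. Procollagen is trimmed outside the cell before it can form fibrils.

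The sorts were checked against marker genes. The periostin ID POSTN (ENSDARG00000104267) lay between 715 and 1532 TPM in citrine-positive and between 202 and 426 TPM in double-negative libraries. TCF21, a transcription factor of epicardium and fibroblasts, lay between 36.9 and 83.7 TPM in the former and between 20.7 and 47.8 TPM in the latter. TCF21 was listed at 0 in all 3 uninjured mCherry-positive libraries and reached at most 0.53 TPM in the injured ones. POSTN (ENSDARG00000104267) lay between 0.19 and 0.63 TPM in uninjured mCherry-positive libraries and between 0.28 and 36.3 TPM in injured ones. The source of its RNA in the injured libraries was not tested. Other stromal and epicardial markers did not separate the sorts in this way. The retinoic acid enzyme gene ALDH1A2 averaged 211 and 197 TPM in uninjured and injured mCherry-positive cells, 52.9 TPM in citrine-positive and 56.9 TPM in double-negative cells. PDGFRA averaged 29.6, 31.4, 45.2 and 18.3 TPM in the same order, and a second periostin ID, ENSDARG00000043806, 136, 157, 206 and 106 TPM. The double-negative sort was a mixture: it held 119 to 228 TPM of the leukocyte gene ptprc and 24.0 to 57.0 TPM of the endothelial gene kdrl. In citrine-positive libraries ptprc lay between 0.08 and 0.43 TPM and kdrl between 0.74 and 1.73 TPM. Which cells of the mixture carried the 9 genes was not measured. In such bulk samples, fewer cells of a type and less RNA per cell cannot be told apart.

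Libraries of pools 9 and 10 stood apart from the others. A pair of uncharacterised IDs, si:dkeyp-3b12.8 and si:dkeyp-3b12.11, made up 25.7% to 35.8% of the total TPM of each of these 5 libraries and at most 2.09% of any other. Within its sort the citrine-positive library of pool 7 also stood apart. It had 10815 TPM of summed cardiomyocyte markers (21 IDs) against 1246 and 1324 TPM in the citrine-positive libraries of pools 9 and 10. The sum was also high in mCherry-positive libraries, with 10542 to 13820 TPM without injury and 4678 to 9059 TPM at 7 dpi. The sarcomere genes of the list did not follow these sums. In citrine-positive pool 7, cmlc1 had 832 TPM and tnnc1a 733 TPM. In mCherry-positive libraries cmlc1 reached at most 16.4 TPM without injury and 39.3 TPM at 7 dpi, and tnnc1a at most 18.2 and 27.6 TPM. Between 12111 and 16854 IDs reached 1 TPM per library. Depth is unknown, because TPM keeps no counts.

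The most abundant of the 9 genes was DPT (ENSDARG00000056178). It encodes dermatopontin, a small matrix protein that binds collagen and decorin and that in mouse marks fibroblasts of many tissues. DPT was measured at 277, 485 and 878 TPM in the citrine-positive libraries of pools 7, 9 and 10 (547 ± 305 TPM, SD, n = 3). In the 6 double-negative libraries it ranged from 174 through a median of 301 to 505 TPM (318 ± 139 TPM). The sorts overlapped, and 3 of the 6 double-negative libraries lay at or above the lowest citrine-positive one. In mCherry-positive libraries DPT was listed at 0.62, 0 and 0 TPM without injury and at 0.29, 0.98, 3.25 and 0.69 TPM at 7 dpi. It ranked 104th of all IDs by mean in citrine-positive cells and 232nd in double-negative cells.

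**Figure D1:**
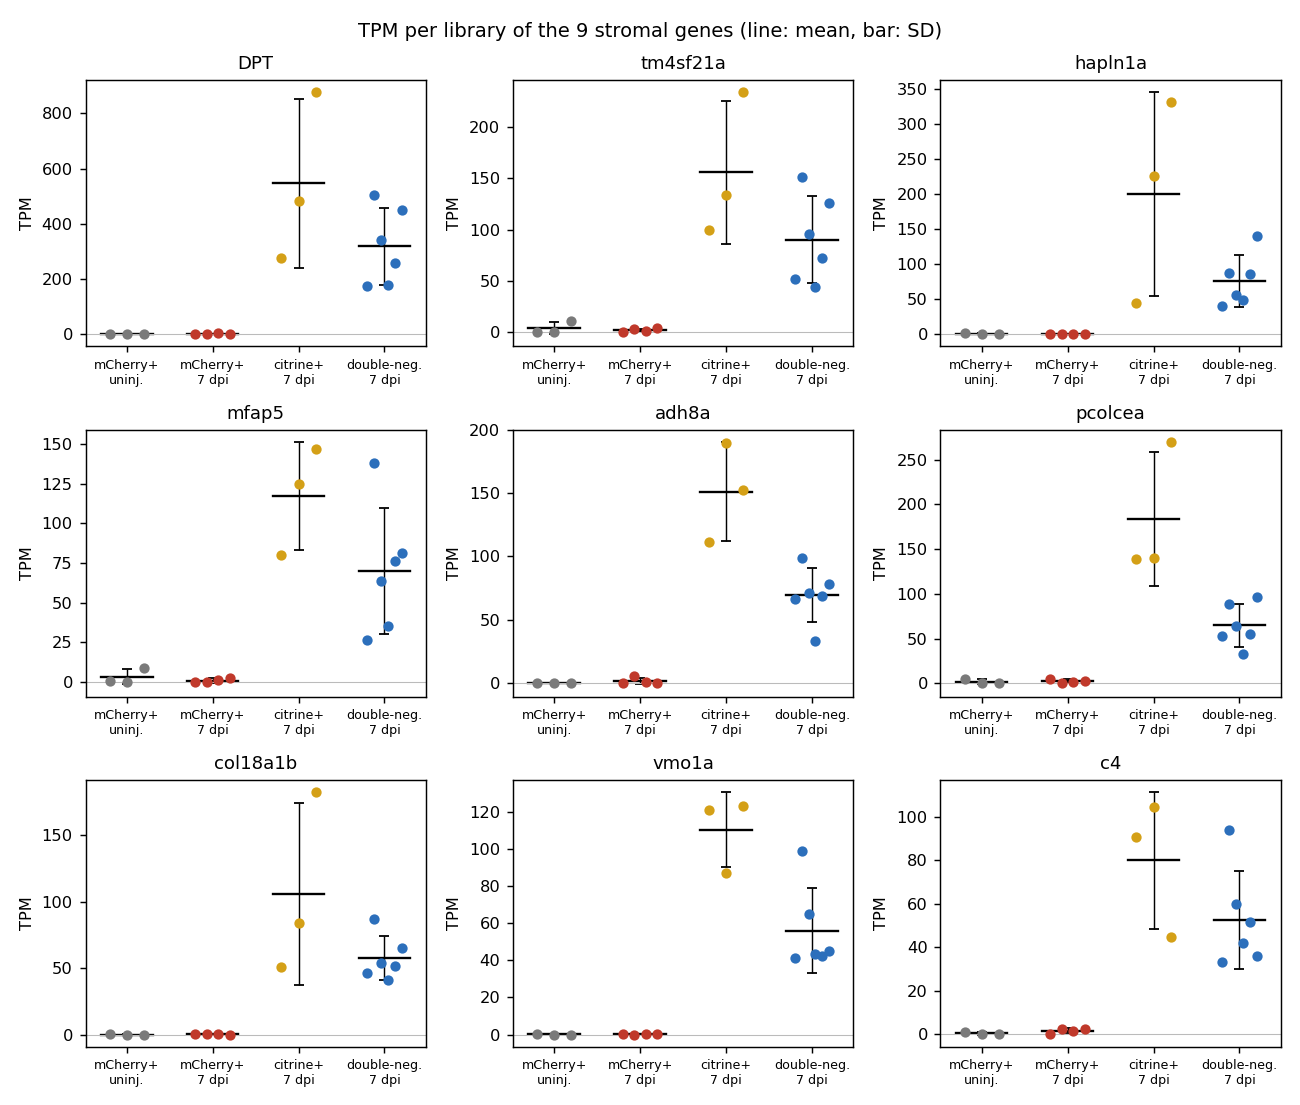
TPM (vertical axis, linear, 1 panel per gene) of the 9 genes in each of the 16 libraries, grouped by sort; each point is a library, the line is the mean and the bar the SD. DPT reaches 878 TPM, and the highest value of any gene in an mCherry-positive library is 10.84 TPM, for tm4sf21a.

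The next 3 genes serve the assembly of the matrix. The gene hapln1a (ENSDARG00000089769) encodes a link protein that ties hyaluronan to proteoglycans such as versican, and in zebrafish it marks a subset of epicardial cells. Its citrine-positive libraries had 44.1, 225 and 332 TPM (200 ± 146 TPM, n = 3), and its double-negative libraries ranged from 39.6 through 70.5 to 141 TPM (76.2 ± 37.2 TPM, n = 6). The low value of pool 7 lay inside the double-negative range, so hapln1a varied most among citrine-positive libraries, with a 7.54-fold span. In mCherry-positive libraries it reached at most 1.88 TPM.

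The gene mfap5 (ENSDARG00000090560) encodes a glycoprotein that binds fibrillin in microfibrils. It had 80.0, 125 and 147 TPM in citrine-positive libraries (117 ± 34.05 TPM) and from 26.3 through 69.8 to 138 TPM in double-negative ones (70.08 ± 39.9 TPM). Its 5.26-fold span was the widest of the 9 genes among double-negative libraries. It was also the gene closest to the ceiling, at 4.70% of its double-negative mean in uninjured mCherry-positive cells, and 1 library set that value: 8.79 TPM in pool 4 against 0.80 and 0.29 TPM in pools 2 and 3.

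The gene pcolcea (ENSDARG00000056913) encodes an enhancer of the protease that trims the C-terminal end of procollagen. It was measured at 139, 141 and 270 TPM in citrine-positive libraries (183 ± 74.95 TPM) and from 32.4 through 59.6 to 96.5 TPM in double-negative ones (65.1 ± 24.0 TPM). All 3 citrine-positive libraries lay above all 6 double-negative ones. Of the 9 genes it had the highest ratio of citrine-positive to double-negative means, 2.82.

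The basement membrane was represented by col18a1b (ENSDARG00000095901), a chain of collagen XVIII, from whose end endostatin is cut. It had 50.8, 84.0 and 182 TPM in citrine-positive libraries (106 ± 68.4 TPM) and 41.0 through 52.8 to 87.0 TPM in double-negative ones (57.4 ± 16.6 TPM). In 4 double-negative libraries the level was at or above that of the lowest citrine-positive one. Every mCherry-positive library had at most 0.59 TPM.

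The complement gene c4 (ENSDARG00000015065) encodes a component of the classical and lectin pathways. Its citrine-positive libraries had 90.7, 105 and 44.6 TPM (80.0 ± 31.4 TPM), and its double-negative ones ranged from 33.1 through 46.8 to 93.8 TPM (52.7 ± 22.5 TPM). The c4 gene had the lowest ratio of means, 1.52, and its citrine-positive library of pool 10 was the lowest, where 7 of the 9 genes had their highest.

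The other genes are an enzyme, a secreted protein and a membrane protein. The alcohol dehydrogenase gene adh8a (ENSDARG00000091211) had 111, 190 and 152 TPM in citrine-positive libraries (151 ± 39.3 TPM) and 32.8 through 70.0 to 99.2 TPM in double-negative ones (69.4 ± 21.5 TPM), with no overlap. The gene vmo1a (ENSDARG00000043002), named after a protein of the outer vitelline membrane of bird eggs, had 121, 87.2 and 124 TPM (111 ± 20.3 TPM) against 41.2 through 44.3 to 99.1 TPM (56.0 ± 22.9 TPM). Only 1 double-negative library, that of pool 6, reached the citrine-positive range of vmo1a. The gene tm4sf21a (ENSDARG00000057706), of the L6 family of membrane proteins, had 99.8, 134 and 235 TPM (156 ± 70.26 TPM) against 43.8 through 84.0 to 151 TPM (90.1 ± 42.3 TPM). As for mfap5, the uninjured mCherry-positive mean of tm4sf21a came from 1 library, with 10.8 TPM in pool 4 and 0 in pools 2 and 3, while injured libraries had 0, 2.11, 0.58 and 3.35 TPM.

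Close to the thresholds, the genes just inside the level minimum were c4, vmo1a and col18a1b, with lower means of 52.7, 56.0 and 57.4 TPM. Just outside were c6.1 (49.8 TPM), tmsb2 (47.0 TPM) and ENSDARG00000100319 (42.8 TPM). Just under the mCherry ceiling were mfap5 (4.70%), tm4sf21a (4.01%) and pcolcea (3.56%), and just above it were POSTN (ENSDARG00000104267, 5.56%), C25H11orf96 (7.88%) and si:dkeyp-116a7.2 (7.93%). The highest ratios of the sorts were those of pcolcea (2.82), hapln1a (2.63) and adh8a (2.18), and no gene that met the other thresholds exceeded the limit of 4. Leaving out 1 library at a time moved the number of genes between 6 and 12. Without the double-negative library of pool 6, the double-negative means of c4 (44.5 TPM) and vmo1a (47.4 TPM) fell under the minimum level. That of mfap5 (56.5 TPM) did not, but its mCherry-positive mean then exceeded the ceiling, and 6 genes remained. Without uninjured pool 2 or pool 3, mfap5 and tm4sf21a exceeded the ceiling and 7 remained.

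Summed over the 9 genes, the level was 1015, 1575 and 2365 TPM in the citrine-positive libraries of pools 7, 9 and 10. It ranged from 498 through a median of 817 to 1351 TPM in double-negative libraries and from 0.60 to 19.9 TPM in the 7 mCherry-positive ones. DPT made up 27.3% to 37.1% of the sum in citrine-positive libraries and 32.7% to 40.3% in double-negative ones. The share of tm4sf21a lay between 8.49% and 9.93% and between 8.80% and 11.2%. The median share of hapln1a was 14.0% in citrine-positive and 8.59% in double-negative libraries, that of pcolcea 11.4% and 7.30%, and that of adh8a 10.985% and 7.74%. Within the citrine-positive sort, the share of c4 ran from 1.89% to 8.94% and that of hapln1a from 4.34% to 14.3%. The limit on the ratio of means bounded how far these shares could differ between sorts.

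The mean of all 9 genes was higher in citrine-positive than in double-negative cells, by 1.52 to 2.82 times with a median of 1.84. Among the 806 IDs at 50 TPM in both sorts and within the ratio, 34.2% were higher in citrine-positive cells and the median ratio was 0.83. For 2 of the 9 genes, adh8a and pcolcea, every citrine-positive library lay above every double-negative one. That held for 3.83% of the 19039 IDs tested, and since the choice of the genes used both means, nothing is read from that count. On the log2(TPM + 1) scale the median difference over the 9 genes was 0.89, while over all tested IDs it was -0.23. That general offset depended on scaling: it was -0.03 after median-of-ratios scaling, where the median over the 9 genes was 1.2004.

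Libraries numbered 7, 9 and 10 were present in both sorts. A shared number was read as a shared pool of hearts, so the ratio could also be read within a pool. In pools 9 and 10 all 9 genes were higher in citrine-positive cells, with ratios from 1.63 to 2.75 in pool 9 and from 1.24 to 2.81 in pool 10. In pool 7 the ratios ran from 0.80 to 2.17, and DPT (0.81), hapln1a (0.80) and col18a1b (0.94) were lower in citrine-positive cells. The citrine-positive library of pool 7 is the one rich in cardiomyocyte markers, and 7 of the 9 genes had their lowest citrine-positive value there in deposited TPM. After median-of-ratios scaling that library held the highest citrine-positive value of 2 genes, with a median deviation of -0.33 over the 9. The part of cardiomyocyte RNA in its low values was not tested. With that library left out, the ratio of means was 3.66 for hapln1a, 2.14 for DPT and 2.32 for col18a1b, while those of vmo1a (1.88) and c4 (1.41) were lower than with it. The median log2 difference over the 9 genes was then 1.14.

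**Figure D2:**
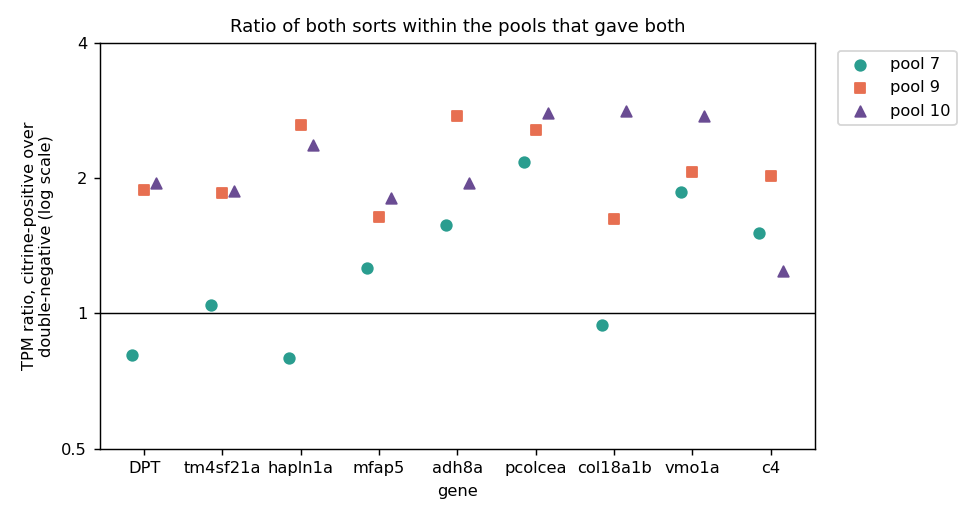
Ratio of TPM in citrine-positive over double-negative cells (vertical axis, log scale) for each gene within pools, read from library numbers present in both sorts. Circles, squares and triangles are pools 7, 9 and 10. All ratios of pools 9 and 10 lie above 1, and in pool 7 those of DPT, hapln1a and col18a1b lie below 1.

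The choice of genes used the mean of each sort and not the difference between its libraries, but a high library raises that mean. The genes c4, mfap5 and vmo1a met the thresholds only with the double-negative library of pool 6. Their high values there were thus partly fixed by the choice. Across the 6 double-negative libraries the genes tended to be high or low in the same ones. The library of pool 6 was above the mean of its sort for all 9 genes, by a median of 0.79 on the log2 scale, and held the highest value of 7 of them. The library of pool 8 was below it for all 9, with a median of -0.71, and that of pool 5 for 8 of 9, with a median of -0.56. The other 2 highest values, those of hapln1a and pcolcea, were in pool 10, which was above the mean for 7 genes with a median of 0.41. Over all tested IDs the median deviation was 0.39 in pool 6, -0.19 in pool 8, -0.33 in pool 5 and -0.03 in pool 10, so part of the pattern was shared by all IDs.

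Which library was highest depended on the scaling. After median-of-ratios scaling, pool 10 held the highest value for 6 genes and pool 6 for 3, with median deviations of 0.57 and 0.24. After rescaling without both si:dkeyp-3b12 IDs, pool 10 was again the highest for 6 genes and pool 6 for 3. Pool 8 was below the mean for all 9 genes under each of these scalings. After median-of-ratios scaling, pool 6 was above the mean for 7 genes, and pool 5 for 4, with a median of -0.20. After the rescaling, pool 6 was above it for 9 genes and pool 5 for 0. In deposited TPM, pool 10 stood high in the citrine-positive sort as well, with the highest value of 7 genes. Its median deviation was 0.63, against 0.07 over all tested IDs. The exceptions were adh8a and c4, whose highest values were in pool 9. After median-of-ratios scaling the citrine-positive library of pool 10 was highest for 6 genes, and after the rescaling for 7, with median deviations of 0.55 and 0.70. In deposited TPM the c4 gene was below its mean in pool 10 of both sorts. Its deviation was -0.74 in citrine-positive and -0.45 in double-negative cells. In double-negative pool 10, vmo1a was also below its mean, with -0.23.

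**Figure D3:**
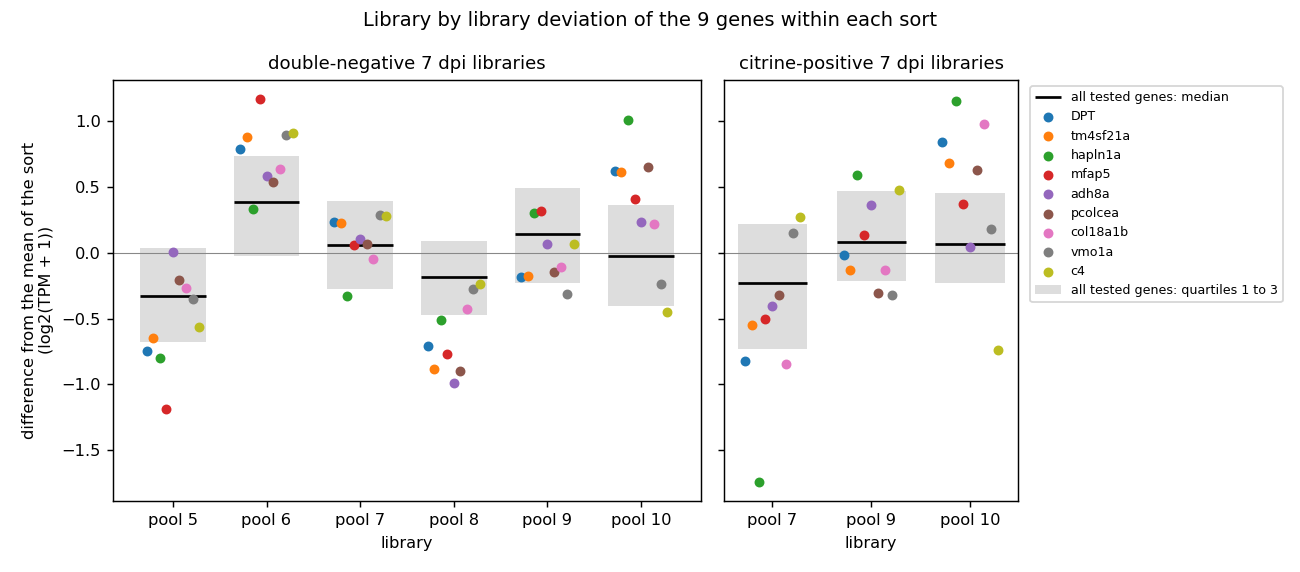
Difference of each library from the mean of its sort, in log2(TPM + 1), for the 6 double-negative and the 3 citrine-positive libraries; coloured points are the 9 genes, grey boxes span quartiles 1 to 3 of all tested genes and black lines are their medians. In double-negative cells all 9 genes lie above 0 in pool 6 and below 0 in pool 8.

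The spread between libraries differed from gene to gene. In double-negative libraries the SD of log2(TPM + 1) ran from 0.38 for col18a1b to 0.85 for mfap5, with a median of 0.56 over the 9 genes, 0.57 over all tested IDs and 0.55 over the 1348 IDs averaging 50 TPM or more there. In citrine-positive libraries it ran from 0.28 for vmo1a to 1.53 for hapln1a, with a median of 0.62, against 0.61 over all tested IDs and 0.45 over the 1039 IDs at 50 TPM.

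Markers of other cells varied between the same libraries. In double-negative libraries the summed erythroid markers (15 IDs, 1 of them at 0 in all 6) ranged from 2203 to 28685 TPM, highest in pool 7. Macrophage markers (23 IDs, none at 0 in all) ranged from 3884 TPM in pool 8 to 7226 TPM in pool 6. Endothelial markers (26 IDs) ranged from 338 to 952 TPM and cardiomyocyte markers from 2325 to 5059 TPM, both highest in pool 6. The fibrillar collagens and their partners (20 IDs, none of the 9 genes among them) ranged from 1820 TPM in pool 5 to 4704 TPM in pool 6. The library of pool 6 was therefore high in the 9 genes and in markers of several other cells, and the part of cell mixture in the pattern was not tested. In citrine-positive libraries erythroid markers lay between 11.95 and 30.4 TPM (4 of 15 IDs at 0 in all) and macrophage markers between 369 and 490 TPM.

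**Figure D4:**
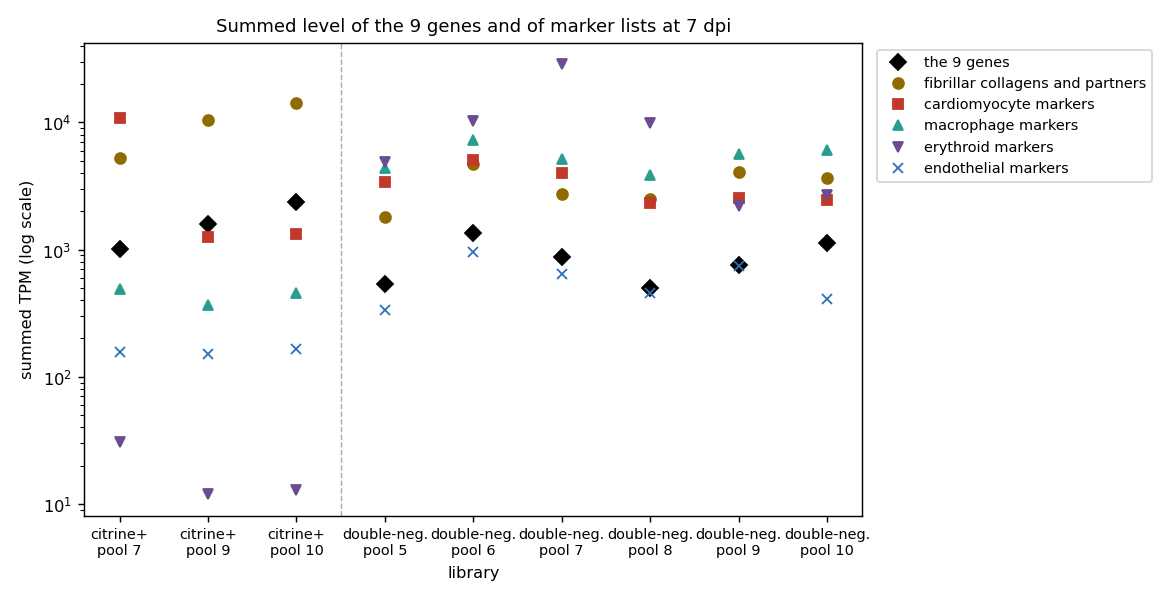
Summed TPM (vertical axis, log scale) of the 9 genes and of 5 marker lists in the 3 citrine-positive and the 6 double-negative libraries; each symbol is the sum in 1 library. The sum of the 9 genes lies between 498 and 2365 TPM, while cardiomyocyte markers reach 10815 TPM in citrine-positive pool 7.

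The comparison of injured with uninjured hearts asked whether mCherry-positive cells gained RNA of these genes at 7 dpi. The choice of the genes did not use the difference between both groups, but it held both low, so a gene that rose strongly in injured mCherry-positive cells could not have been among the 9. The counts that follow are therefore given as a description, and nothing is read from them. By limma, 0 of 9 genes were called at an adjusted p under 0.05, and 0 of 9 had an unadjusted p under 0.05. Of the 19039 IDs tested, 0.693% were called (80 higher, or 0.42%, and 52 lower, or 0.273%) and 11.5% had an unadjusted p under 0.05. After median-of-ratios scaling the calls over all IDs were 136 higher and 54 lower, with none of the 9 among them. For 0 of the 9 genes were the 3 uninjured and the 4 injured libraries free of overlap. Over all tested IDs this share was 6.92% (2.89% higher and 4.03% lower).

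The estimates were small in TPM. Fold changes here are differences of mean log2(TPM + 1), and the added 1 shrinks them at levels this low. DPT averaged 0.21 TPM uninjured and 1.3025 TPM at 7 dpi, with a log2 fold change of 0.82 ± 0.49 (SE, 95% confidence interval -0.21 to 1.85, adjusted p = 0.547 by limma). The DPT estimate was 2.41 with a pseudocount of 0.1 and 0.26 with one of 5. The lowest estimate was that of mfap5, which averaged 3.29 TPM uninjured and 0.98 TPM at 7 dpi (-0.76 ± 0.67; interval -2.16 to 0.65; adjusted p = 0.719). It rested on 1 library, and without uninjured pool 4 it was 0.14. For the other genes the estimates lay between -0.32 for hapln1a and 0.67 for c4, with adjusted p values from 0.655 to 1.0, and 6 of all 9 were above 0. The intervals reached up to 1.93 on this scale for pcolcea and 1.803 for adh8a. The fit took the spread from all 16 libraries, including the sorts where these genes were high. The intervals thus do not measure the spread of mCherry-positive libraries alone, and they leave out that the choice bounded both means. The median over the 9 genes was 0.32, against -0.06 over all tested IDs.

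These values lie close to the lowest that the table resolves. Counted in mCherry-positive libraries alone, 4 genes (tm4sf21a, mfap5, pcolcea and c4) reached 1 TPM in at least 3 of the 7. The other genes passed the filter of 1 TPM in 3 libraries only through the other sorts. Between 0 and 6 of the 9 genes were listed at 0 in an mCherry-positive library, with 6 in uninjured pool 3. The uninjured and the injured hearts were in different pools, so injury and pool cannot be told apart in this comparison.

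**Figure D5:**
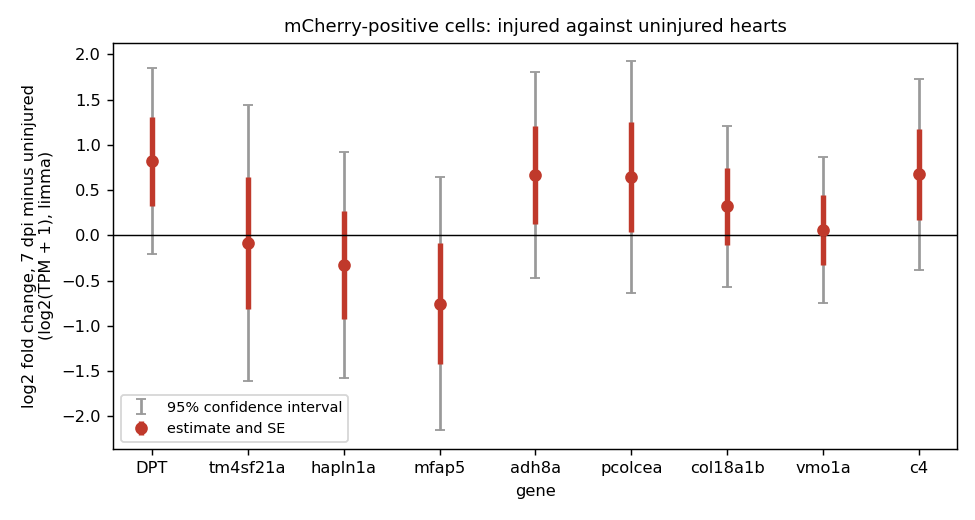
Difference of mean log2(TPM + 1) in mCherry-positive cells, 7 dpi minus uninjured, for each gene, called log2 fold change in the text. Points are limma estimates, thick bars the SE and thin bars the 95% confidence interval, with the spread taken from all 16 libraries. All 9 intervals include 0, and the estimates run from -0.76 for mfap5 to 0.82 for DPT.

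Relatives of the 9 genes were set beside them, chosen by name after the values had been seen. Some relatives were also higher on average in citrine-positive and double-negative than in mCherry-positive cells. The other collagen XVIII gene, col18a1a, averaged 61.6 ± 23.9 TPM in citrine-positive cells and 29.0 ± 12.5 TPM in double-negative ones, with at most 2.51 TPM in any mCherry-positive library, and missed the level minimum. The complement gene c4b had 149 ± 41.8 and 54.2 ± 18.6 TPM, but also 13.6 ± 12.7 TPM in injured mCherry-positive cells. The microfibril gene mfap2 had 168 ± 76.6 and 56.8 ± 25.4 TPM, with 6.53 ± 2.93 TPM in those cells.

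Other relatives lacked the pattern, apart from vcana, vcanb and an ID each of BMP1 and PCOLCE2, which are described below. The second link protein ID, HAPLN1 (ENSDARG00000068516), was highest in uninjured mCherry-positive cells, at 45.8 ± 7.70 TPM, and averaged 14.4 ± 7.74 TPM in citrine-positive cells and 11.7 ± 5.57 TPM in double-negative ones. The proteoglycan genes that its family binds were lower than hapln1a: vcana had 12.4 ± 8.40 TPM in citrine-positive cells and vcanb 46.1 ± 24.3 TPM. The alcohol dehydrogenase gene adh8b, which lies next to adh8a in the RefSeq gene order of the assembly GRCz12tu, had 27.8 ± 9.38 TPM in uninjured mCherry-positive and 18.8 ± 12.7 TPM in citrine-positive cells. In the same order hapln1a lies between vcana and edil3a, and none of the 9 genes has another of them as its nearest coding neighbour. The genes pcolceb, vmo1b and tm4sf21b averaged at most 1.13 TPM in citrine-positive and 0.41 TPM in double-negative cells.

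For trimming of procollagen, an ID of each partner of pcolcea was present in the same sorts, while a second ID of each was low there. The protease BMP1 (ENSDARG00000028071) averaged 105 ± 41.3 TPM in citrine-positive cells and 41.1 ± 12.3 TPM in double-negative ones, and PCOLCE2 (ENSDARG00000055575), a second enhancer, had 160 ± 16.3 and 61.7 ± 28.7 TPM. In injured mCherry-positive cells BMP1 averaged 13.7 ± 6.98 TPM and PCOLCE2 45.8 ± 21.7 TPM, beside 2.32 ± 2.06 TPM of pcolcea, whose level there the choice had bounded. Against double-negative cells, BMP1 (log2 fold change 1.297 ± 0.39, adjusted p = 0.0424) and PCOLCE2 (1.47 ± 0.42, adjusted p = 0.0283) were higher in citrine-positive cells by limma. BMP1 missed the threshold after rescaling without the si:dkeyp-3b12 IDs (adjusted p = 0.0512), and PCOLCE2 missed it without the citrine-positive library of pool 7 (adjusted p = 0.0616).

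The gene groups below were tested in the same fit, without the 9 genes. Of the 9, pcolcea, hapln1a, DPT, mfap5 and c4 are each in 1 of the first 5 groups, and the other 4 are in none of them. The basement membrane group holds none of the 9. Of all tested IDs, 1.78% were higher in citrine-positive than in double-negative cells and 8.08% lower, 9.85% together. These calls moved with the fit: 338 IDs were higher and 1538 lower, against 886 and 1567 after median-of-ratios scaling and 163 and 1138 with the pool as a block. Of 29 tested IDs for collagen processing and crosslinking, 4 were higher (BMP1, PCOLCE2, LOXL3 and TGM2) and 0 lower, with a median log2 difference of 0.81. The count of higher IDs was 3 with the pool as a block, 9 after median-of-ratios scaling and 2 after rescaling without the si:dkeyp-3b12 IDs. LOXL3 missed the threshold with the block (adjusted p = 0.0991). TGM2 missed it after that rescaling (adjusted p = 0.0538) and without the citrine-positive library of pool 7 (adjusted p = 0.0634). Of 20 tested proteoglycan IDs, 4 were higher and 0 lower, with a median of 0.88. They included LUM, a proteoglycan of collagen fibrils (2.31 ± 0.47, adjusted p = 0.00295), and acanb, an aggrecan gene (2.90 ± 0.64, adjusted p = 0.00529). The count was 2 with the pool as a block, 1 without the citrine-positive library of pool 7 and 8 after median-of-ratios scaling. In the last 2 of these fits 19 IDs were tested and acanb no longer passed the filter. It averaged 16.4 TPM in citrine-positive and 0.155 TPM in double-negative cells. Its passing rested mainly on the sort where it was high, so nothing is read from its call. Of 31 tested IDs of fibroblast identity, 10 were higher and 1 lower (FOXC1), with a median of 1.08. Among the higher ones was PRRX1, a mesenchymal transcription factor (2.09 ± 0.43, adjusted p = 0.00299). It averaged 6.78 TPM in citrine-positive and 0.76 TPM in double-negative cells. Its mean in every sort but the citrine-positive one was under the 1 TPM of the filter, so nothing is read from its call. With the pool as a block 4 were higher, and after median-of-ratios scaling 16.

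Elastic fibre and complement genes moved both ways. Of 17 tested elastic fibre IDs, 4 were higher (elnb, fbln5, FBLN2 and mfap2) and 6 lower, with a median of 0.37, and all 6 lower ones carried the symbol MFAP4, which in zebrafish marks macrophages. Among these, ENSDARG00000038683 averaged 4.03 TPM in double-negative cells. Its mean in every other sort was under the 1 TPM of the filter, so nothing is read from its call. After median-of-ratios scaling 7 were higher. With the pool as a block fbln5 (adjusted p = 0.0606) and FBLN2 (adjusted p = 0.0757) missed the threshold. Of 16 tested complement and acute phase IDs, CLU, which encodes clusterin, was higher (1.43 ± 0.36, adjusted p = 0.0131) and cfbl and cfh were lower, with a median of 0.61. CLU missed the threshold without the citrine-positive library of pool 7 (adjusted p = 0.0761), where it was highest, and cfh missed it with the pool as a block (adjusted p = 0.113). The cfh gene passed the filter only through double-negative libraries, where it averaged 2.2 TPM, so nothing is read from its call. After median-of-ratios scaling 4 complement IDs were higher. Of 15 tested basement membrane IDs, lamc3 and lama4, which encode laminin chains, were higher, with a median of 1.04. After median-of-ratios scaling 12 were higher, and without the citrine-positive library of pool 7 it was 6 of 14 tested. The lamc3 gene averaged 24.3 TPM in citrine-positive and 0.12 TPM in double-negative cells. It passed the filter only through citrine-positive libraries and was not tested without that of pool 7, so nothing is read from its call. No median difference of these 6 groups between the sorts was below 0 under any of the scalings tried.

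The levels of these groups were set beside the thresholds. Of them 6 further IDs of collagen processing, 2 of the proteoglycans, 2 of elastic fibres, 5 of basement membrane, 6 of complement and 1 of fibroblast identity reached 50 TPM in both sorts. Among these, only tfa of the complement and acute phase group met every threshold, and it was among the IDs left out by name. Of the 806 IDs at that level and within the ratio, 12 were under the ceiling. In mCherry-positive cells at 7 dpi against uninjured, 0.42% of tested IDs rose. Of the same groups, 2 IDs for collagen processing (LOXL2 and TGM2), 2 of basement membrane (NID2 and LAMB2), 1 of elastic fibres (MFAP4, ENSDARG00000038681) and 1 of complement rose, and 0 fell. The last was CLU (3.48 ± 0.39, adjusted p = 1.32e-04 by limma), which averaged 0.99 TPM uninjured and 21.1 TPM at 7 dpi. On the mCherry-positive libraries alone 4 IDs in all were called, so not all of the IDs named here passed in that fit. Injury and pool cannot be told apart in these calls. In citrine-positive cells LOXL2, TGM2, LAMB2 and CLU averaged 162, 247, 43.6 and 536 TPM, and NID2 63.2 TPM. The part of such cells in the rises was not tested. Summed macrophage markers lay between 440 and 1683 TPM in uninjured and between 711 and 2669 TPM in injured mCherry-positive libraries, and their part in the rise of MFAP4 was not tested.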

How the data were processed

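The authors deposited 1 table of TPM per gene ID for 16 libraries. The file names no unit. Its columns sum to 1000000 within rounding, and RSEM, which writes TPM, is named in the submitters' processing notes. The same notes list RSEM at 1.2.25, cutadapt, CASAVA at 1.8.2 and the build Zv9, and the annotation release is not given in the sources used here. Per the labels' protocols, libraries of single reads of 60 bases were made from 0.2 to 0.6 ng of RNA with an Ovation kit for single cells, and low input adds spread. RSEM divides shared reads by estimate, so values of similar paralogs are uncertain. Depth is unknown, and no interval or floor for counting error is given.

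The genes were chosen by group means of the deposited TPM, and the genes and lists were chosen with earlier results of these data known. All 9 genes were named, as was every called list member quoted, the 3 genes on each side of each threshold and, chosen after values were seen, the relatives. Symbols came from a name table that gave 25925 of the 31388 IDs a symbol, often in human-style capitals. Of the listed symbols 253 matched exactly, 168 in another case, 160 without the paralog letter and 58 not at all. Neighbours came from RefSeq by symbol (9 of 9 matched), used for gene order only.

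The injury comparison used limma 3.58.1 (R 4.3.3) and its mean-variance trend, with 1 mean of log2(TPM + 1) per group over all 16 libraries, for IDs of at least 1 TPM in at least 3 libraries, with Benjamini-Hochberg adjustment over all 19039 and a threshold of 0.05. It was tested on simulated data first. Python 3.11.15, numpy 2.4.6, pandas 2.3.3 and matplotlib 3.10.9 made tables and plots. Citrine-positive and double-negative libraries share the numbers 7, 9 and 10 in their titles, and a shared number was read as shared hearts. Same-numbered libraries of these sorts deviated together over all tested IDs (r = 0.28, 0.17 and 0.15). Numbers 9 and 10 also did so with each other (0.09 and 0.10). For mCherry-positive with double-negative libraries, r was 0.01, 0.126, 0.03 and 0.41 in pools 5, 6, 7 and 9. Unlike numbers of these sorts ranged from -0.24 (9 with 6) to 0.134 (5 with 6). In pools 5, 6 and 7 a shared number was thus not set apart by r for these sorts. Shared hearts and shared processing cannot be told apart by these values. Alternatives were other pseudocounts, filters, scalings, thresholds, libraries left out and the pool as a block. The group counts under other scalings were added after seeing the data.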

Additional observations from a re-analysis of the deposited data

Results flagged for a closer look

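The injured mCherry-positive library of pool 6 had 5.55 TPM of adh8a, against 0.39 TPM in the next library of that group and 0 in the lowest, a gap beyond Dixon's 95% critical value for 4 samples. It was the only one of 20 groups tested (each of the 9 genes and their sum, in injured mCherry-positive and in double-negative libraries), and about 1 in 20 is flagged by chance. Without that library the log2 fold change of adh8a at 7 dpi was 0.03, against 0.66 with it, and neither passed. The level is low beside the 32.8 TPM of the lowest double-negative library.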

How the results depend on the processing

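The count of genes depended on the thresholds: 17 genes met a level minimum of 25 TPM, 1 (DPT) a minimum of 100 TPM and 5 an mCherry ceiling of 2.5%, and leaving out a library gave 6 to 12. Ratio limits of 2 and 8 gave 6 and 9 genes, and the 2 planned scalings and that without globin IDs, chosen after seeing the data, gave 10 to 12, including all 9. In the injury comparison 0 of the 9 genes were called under every alternative run. An unadjusted p under 0.05 by limma was seen for 2 genes with a pseudocount of 0.1. It was seen for 1 gene without uninjured pool 2 and for 1 without injured mCherry-positive pool 5. The median over the 9 genes, 0.32, was 1.24 with a pseudocount of 0.1 and 0.11 to 0.42 without single libraries. The estimate of tm4sf21a, -0.08, turned to 0.83 with a pseudocount of 0.1 and to 0.0018 after rescaling without both si:dkeyp-3b12 IDs. Without single libraries it ranged from -0.68 to 1.1045, that of hapln1a from -0.59 to 0.16 and that of mfap5 from -1.32 to 0.14. The causes were not tested. Over all IDs the calls (80 higher, 52 lower) were 127 and 33 with a pseudocount of 0.1, 32 and 54 with one of 5, 36 and 34 with no filter, 136 and 54 after median-of-ratios scaling, and 82 and 33 after rescaling without both si:dkeyp-3b12 IDs. On the mCherry-positive libraries alone, filtered anew, they were 4 and 0, with 4 of the 9 genes tested. Without single libraries they ranged from 47 to 127 and from 33 to 101. The median difference of citrine-positive and double-negative cells over the 9 genes, 0.89, was 0.69 with the pool as a replicate block and 0.70 to 1.14 without single libraries. No block could be fitted for the injury comparison, as its groups share no pool number. TPM keeps no depth, so zeros in mCherry-positive libraries cannot be given a limit.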

Other observations

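The 10 IDs nearest above the mCherry ceiling differed in their citrine-positive libraries. Among them, TNNI1, tnnc1a, cmlc1, MYH7 and actc1a encode parts of the cardiac sarcomere, and all 5 were left out of the gene choice by name. Their level in citrine-positive cells came from pool 7: cmlc1 had 832 TPM there against 43.4 and 51.5 TPM in pools 9 and 10, and MYH7 had 1486 against 61.0 and 76.7 TPM. In double-negative libraries cmlc1 lay between 84.5 and 185 TPM. POSTN (ENSDARG00000104267) and mfap2 went the other way, with 715, 932 and 1532 TPM and with 99.5, 155 and 251 TPM in pools 7, 9 and 10, as did DPT with 277, 485 and 878 TPM. Neither order was seen in C25H11orf96, with 103, 110 and 94.8 TPM, or in si:dkeyp-116a7.2, with 3863, 1466 and 3326 TPM. CLU had 673, 517 and 417 TPM in the same pools.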
